A study of Mus musculus with 30 samples.

Results

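Gene expression of 10 vascular growth factors, receptors and vessel proteins was followed in 3 tissues of mice that had gone without food for 24 hours. The members were chosen by name and cover the ligands *Vegfa*, *Vegfb*, *Vegfc*, *Angpt1* and *Angpt2*, the receptors *Kdr*, *Flt1*, *Flt4* and *Tek*, and the endothelial junction protein *Pecam1*. They are 10 of the 18781 genes measured, and each was represented by the 1 probe set annotated to its symbol. The animals were male C57Bl/6 mice (C57Bl/6J in the series title) of 10 to 12 weeks with no genetic modification. The fed group ate chow freely, and the fasted group lost its food at the start of the light phase, when mice rest. Epididymal white adipose tissue (WAT, the fat pad beside the testis), liver (LIV) and skeletal muscle (SM) were taken from 5 mice per diet, which gave 30 Affymetrix Mouse Gene 1.1 ST arrays in 6 groups. Values are log2 signals after robust multi-array averaging (RMA), on which a difference of 1 is 2-fold, and signals of different probe sets were not set against each other. The comparison of fasted with fed mice asks how each tissue adapts its transcripts to food withdrawal, and the comparison between tissues asks which of these adaptations are particular to one tissue.

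The arrays of fed LIV 4 and fasted SM 5 stood apart from their groups and were left out, so that 28 arrays were compared, 4 or 5 per group, and this number limits the precision. Their mean Pearson r with the other arrays of the group over all probe sets was 0.987 and 0.980, against 0.991 to 0.996 for the arrays used. Fasted SM 5 also carried lymphocyte transcripts, with a mean log2 signal of 7.81 over 8 markers against 3.72 to 3.90 in the other fasted SM arrays. Each tissue carried the markers of its name. The mean log2 signal of 9 adipocyte markers was 11.77 in fed WAT, that of 7 hepatocyte markers was 12.58 in fed LIV and that of 9 muscle fibre markers was 12.67 in fed SM. Fed SM carried adipocyte transcripts as well, with a mean of 8.96 (7.90 to 9.81 by array) against 5.46 in fed LIV. Whether arrays of the same number came from the same mouse is not given in the labels.

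The vascular endothelial growth factors are secreted proteins that act on receptor tyrosine kinases of endothelial cells and control the growth, survival and permeability of vessels. VEGFA, made by parenchymal cells such as adipocytes and muscle fibres, signals mainly through the receptor encoded by *Kdr* (VEGFR2), whereas the receptor encoded by *Flt1* (VEGFR1) binds VEGFA and VEGFB and, in its soluble form, can act as a trap for VEGFA. VEGFC and the receptor encoded by *Flt4* (VEGFR3) guide lymphatic vessels, and angiopoietins regulate the stability of vessels through the receptor encoded by *Tek* (TIE2), with ANGPT1 as its agonist and ANGPT2 as a context-dependent antagonist.

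Promoter windows in the RefSeq table of mouse build GRCm38.p6, from 250 bases before to 50 bases after the transcription start, were found for 7 of the 10 members, and for *Angpt1*, *Angpt2* and *Pecam1* none was given. The windows of the 4 members printed here are those of the genes that passed the threshold in at least 1 tissue, and all of them lie on the minus strand of the genome, written 5′ to 3′ along the gene. Capitals mark matches on either strand to ACGTG (the core of hypoxia response elements), TGACGTCA (the cAMP response element), AGGTCA (the nuclear receptor half-site) and GGGCGG (the GC box); no match of one motif overlapped a match of another.
Vegfa (chr17:46032328-46032627): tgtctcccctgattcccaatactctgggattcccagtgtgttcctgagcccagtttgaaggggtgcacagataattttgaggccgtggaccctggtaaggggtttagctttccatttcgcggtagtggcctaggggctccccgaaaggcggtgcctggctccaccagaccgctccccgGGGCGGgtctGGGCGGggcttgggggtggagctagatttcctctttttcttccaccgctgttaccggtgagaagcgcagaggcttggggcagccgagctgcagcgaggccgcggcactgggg
Vegfb (chr19:6987602-6987901): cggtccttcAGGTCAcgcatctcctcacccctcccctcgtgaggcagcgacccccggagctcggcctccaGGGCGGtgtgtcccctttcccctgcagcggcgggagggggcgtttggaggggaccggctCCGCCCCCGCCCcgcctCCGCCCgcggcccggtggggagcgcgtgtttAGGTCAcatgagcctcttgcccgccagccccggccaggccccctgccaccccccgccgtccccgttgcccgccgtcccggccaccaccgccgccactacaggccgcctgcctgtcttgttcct
Kdr (chr5:75978406-75978705): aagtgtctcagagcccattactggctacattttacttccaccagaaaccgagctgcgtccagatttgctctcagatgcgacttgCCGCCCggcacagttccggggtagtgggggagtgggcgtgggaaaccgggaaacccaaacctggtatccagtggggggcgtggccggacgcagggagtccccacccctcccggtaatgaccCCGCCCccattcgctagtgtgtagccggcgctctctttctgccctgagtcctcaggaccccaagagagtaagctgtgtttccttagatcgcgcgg
Flt1 (chr5:147725962-147726261): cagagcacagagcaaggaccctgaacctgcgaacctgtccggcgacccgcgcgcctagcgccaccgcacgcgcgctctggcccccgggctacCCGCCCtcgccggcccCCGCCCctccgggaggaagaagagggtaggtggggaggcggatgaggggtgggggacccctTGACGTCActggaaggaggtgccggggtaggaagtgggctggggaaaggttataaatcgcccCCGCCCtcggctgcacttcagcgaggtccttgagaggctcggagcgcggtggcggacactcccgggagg
The GC box was found in the first windows of 6 of the 7 members, all but that of *Tek*, and in 35.7% of the 32851 windows of the table. The *Vegfa* window held 2 such matches, 72 and 62 bases before the start. The *Vegfb* window held 4 GC boxes and 2 nuclear receptor half-sites, 241 and 73 bases before the start, a motif present in 16.3% of all windows. The cAMP response element stood 81 bases before the start in the *Flt1* window, and 1.79% of all windows held it. ACGTG was absent from the first windows of the 7 members, and 19.6% of all windows held it. A second *Vegfa* window, at an internal start (chr17:46025114-46025413), held it 211 bases before that start. These matches describe the letters of the windows and were not tested for binding.

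In WAT, *Vegfa* and *Flt1* were upregulated, and *Angpt1*, *Angpt2* and *Vegfb* were downregulated. In SM, *Vegfa*, *Kdr* and *Angpt1* were downregulated, and in LIV the only member past the threshold was *Vegfb*, which was lower. The threshold was that of the study, a difference of 1.3-fold or more with an adjusted p below 0.05 (limma, Benjamini-Hochberg over all probe sets). In WAT 2 of 10 members rose and 3 fell, where 6.93% of all probe sets rose and 6.23% fell. In LIV 0 rose and 1 fell, against 3.12% and 3.43%, and 1 gene of 10 is a description only. In SM 0 rose and 3 fell, against 6.35% and 5.52%. Over the 18781 genes the median log2 change was 0.01 in WAT, 0.03 in LIV and 0.00 in SM, whereas the median of the 5 ligands was -0.47, -0.11 and -0.25 and that of the 4 receptors 0.10, -0.13 and -0.04.

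**Figure D1:**
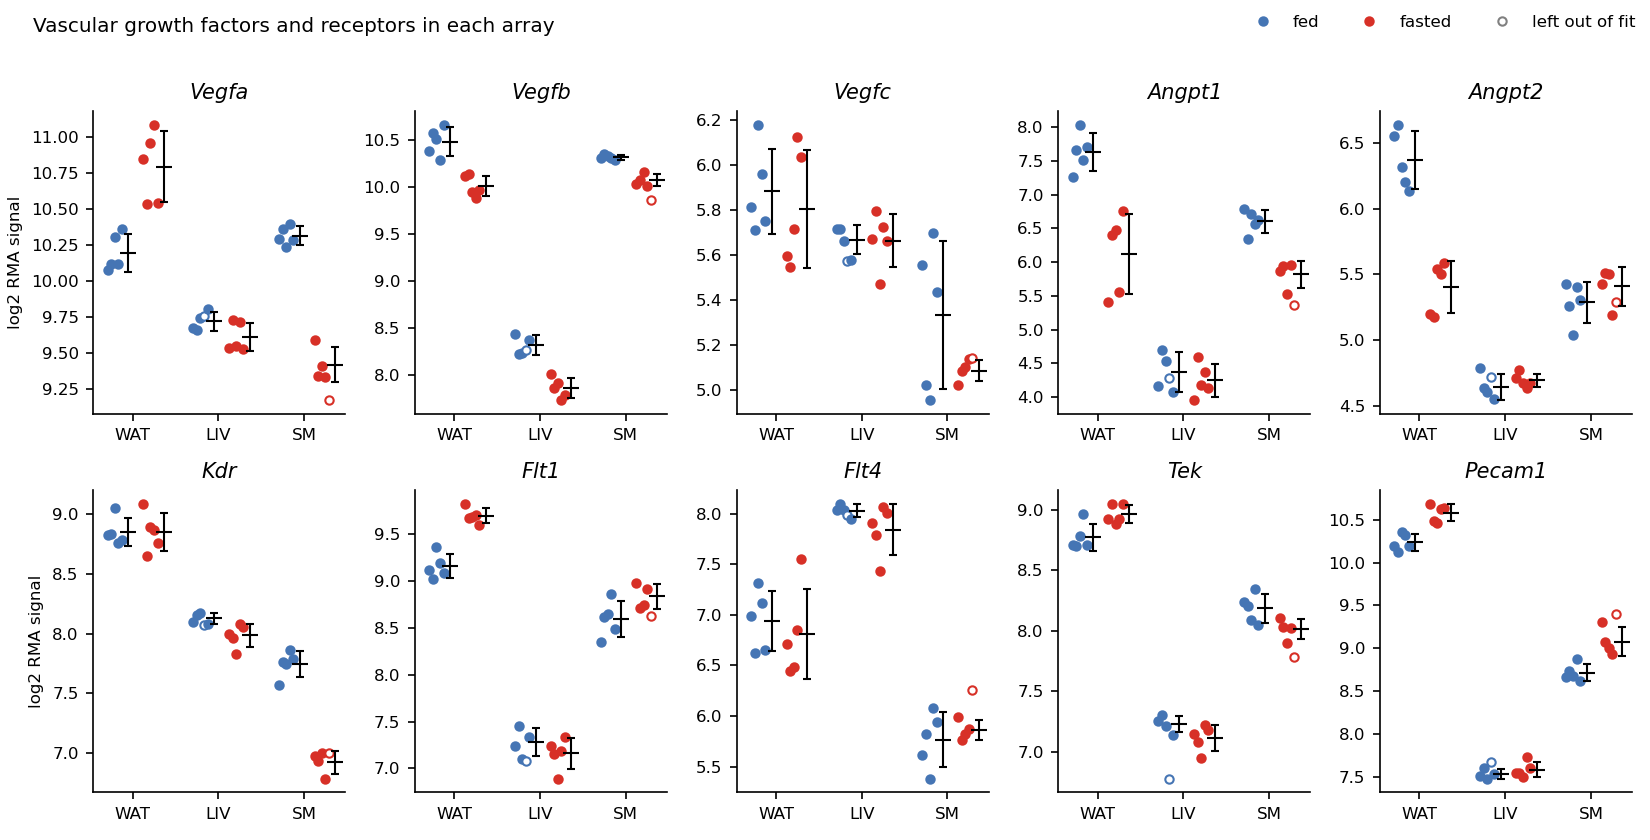
Log2 RMA signal of each member in every array of WAT, LIV and SM, fed in blue and fasted in red; open circles are the 2 arrays left out of the fit, and black bars are the mean and SD of the arrays used (n = 4 or 5). *Vegfa* lies above the fed arrays in fasted WAT and below them in fasted SM, while in LIV the diets overlap.

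**Figure D2:**
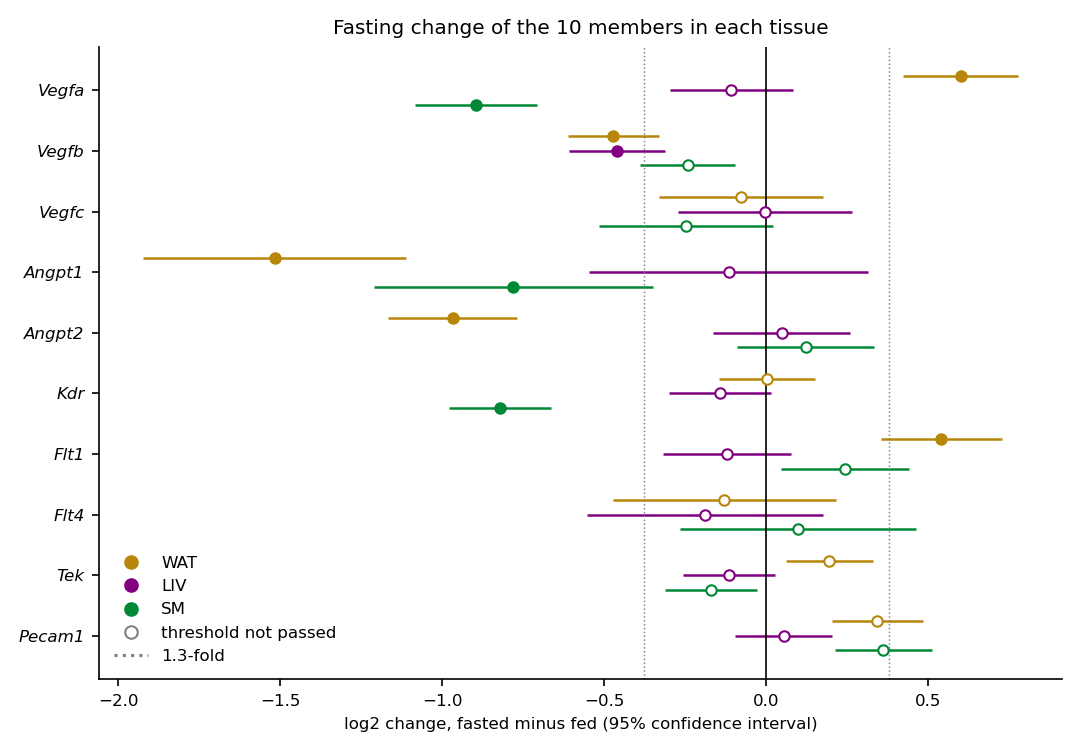
Fasting change of the 10 members on the log2 scale (fasted minus fed, x axis) with the 95% confidence interval of the limma fit, by tissue; filled points passed the threshold and dotted lines mark 1.3-fold. *Angpt1* in WAT lies farthest left at -1.52 and *Vegfa* in WAT farthest right at 0.60.

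*Vegfa*, the main angiogenic ligand, rose in WAT, fell in SM and was within the spread of the arrays in LIV. In fed WAT its log2 signal was 10.07, 10.11, 10.30, 10.11 and 10.36 in mice 1 to 5, and in fasted WAT it was 10.85, 10.53, 10.96, 11.08 and 10.54. Every fasted array lay above every fed array, with fasted mice 2 and 5 closest to the fed ones. The change was 0.60 ± 0.09 (log2, SE), which is 1.51-fold higher (95% confidence interval 1.34 to 1.71, adjusted p = 4.93e-06). The call was lost with the endothelial marker mean, which itself differed by diet, as a covariate (0.54 ± 0.19, adjusted p = 0.148). In SM the signal was 10.29, 10.36, 10.23, 10.39 and 10.28 in fed mice and 9.59, 9.34, 9.41 and 9.33 in fasted mice 1 to 4. The groups were far apart, and the array left out, at 9.17, was lower still. The change was -0.90 ± 0.09 (1.86-fold lower, interval 1.63 to 2.12; adjusted p = 2.58e-08). In LIV the fed arrays lay between 9.65 and 9.80 and the fasted ones between 9.53 and 9.73, a change of -0.11 ± 0.09 (adjusted p = 0.522). The interval of this change, -0.30 to 0.08 on the log2 scale, does not reach the 1.3-fold limit of 0.38 in either direction. The opposite movement was itself tested, and the fasting change in WAT exceeded that in SM by 1.49 ± 0.13 (adjusted p = 2.65e-09).

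*Vegfb*, a ligand of the receptor encoded by *Flt1*, was downregulated in WAT and LIV. In fed WAT the log2 signal was 10.38, 10.58, 10.52, 10.29 and 10.66, and in fasted WAT 10.12, 10.14, 9.95, 9.89 and 9.98. In LIV it was 8.44, 8.23, 8.24 and 8.38 in the fed mice used and 8.01, 7.86, 7.91, 7.74 and 7.78 in the fasted mice. In neither tissue did a fasted array reach a fed one. The change was -0.47 ± 0.07 in WAT (1.39-fold lower, adjusted p = 4.38e-06) and -0.46 ± 0.07 in LIV (1.38-fold lower, adjusted p = 4.15e-05). In SM the fed arrays lay between 10.29 and 10.35 and the fasted arrays between 10.02 and 10.17. That change of -0.24 ± 0.07 (1.18-fold lower, adjusted p = 0.0138) did not overlap between diets either, but was under 1.3-fold. None of the 3 differences between tissues passed the threshold for *Vegfb*, with values between -0.23 and 0.22 and adjusted p from 0.122 to 0.961. Both calls were under 1.5-fold and were not made at that limit, and each was lost with a cell type covariate. With the endothelial marker mean, which itself differed by diet, the WAT change was -0.47 ± 0.14 (adjusted p = 0.0875). With the mural marker mean, chosen after seeing the data, the LIV change was -0.35 ± 0.12 (adjusted p = 0.198). The mean log2 signal of the 7 mural markers lay between 5.68 and 5.97 in fed and between 5.42 and 5.71 in fasted LIV, where 0 rose and 1 fell (*Pdgfrb*), with a median change of -0.18.

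*Vegfc*, the ligand of lymphatic vessels, did not pass the threshold in a tissue. Its change was -0.08 ± 0.12 in WAT (adjusted p = 0.745), 0.00 ± 0.13 in LIV (0.990) and -0.25 ± 0.13 in SM (0.194). In fed SM the arrays spread from 4.96 to 5.70, and the fasted ones lay within that range, from 5.02 to 5.14.

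Both angiopoietins fell in WAT, and *Angpt1* fell in SM as well. *Angpt1*, which stabilises vessels, had a log2 signal of 7.27, 7.66, 8.03, 7.52 and 7.71 in fed WAT and of 5.41, 6.40, 6.48, 5.56 and 6.76 in fasted WAT. The fasted mice fell into a lower pair, mice 1 and 4, and 3 mice about 1 log2 unit higher, all of them below the fed mice. The change of -1.52 ± 0.20 (2.86-fold lower, interval 2.16 to 3.79; adjusted p = 1.01e-06) was the largest among the members. In SM the signal was 6.79, 6.34, 6.71, 6.56 and 6.62 in fed mice and 5.86, 5.94, 5.53 and 5.96 in fasted mice. The groups did not overlap, and the change was -0.78 ± 0.21 (1.72-fold lower, adjusted p = 0.00674). In LIV the signal was low, from 3.96 to 4.69 over both diets, where 3.57 is the dim limit (the 25th percentile of all values), and the change of -0.12 ± 0.21 did not pass (adjusted p = 0.802).

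*Angpt2*, which is made by endothelial cells of remodelling vessels, had a log2 signal of 6.55, 6.64, 6.32, 6.20 and 6.13 in fed WAT and of 5.20, 5.17, 5.54, 5.50 and 5.59 in fasted WAT. A gap separated the diets, and the change was -0.97 ± 0.10 (1.96-fold lower, interval 1.70 to 2.25; adjusted p = 1.46e-08). In SM and LIV the diets overlapped. The change there was 0.12 ± 0.10 (adjusted p = 0.465) and 0.05 ± 0.10 (adjusted p = 0.842), and the fall in WAT exceeded both, by -1.09 ± 0.14 relative to SM (adjusted p = 2.79e-06) and by -1.01 ± 0.14 relative to LIV (7.46e-06). Mural cells, the smooth muscle cells and pericytes around vessels, are a known source of *Angpt1*. Of 7 mural markers 0 rose and 2 fell in fasted WAT (*Rgs5* and *Cspg4*), and their mean log2 signal lay between 8.80 and 9.38 in fed and between 8.34 and 9.31 in fasted arrays. The lowest fasted WAT arrays by this mean were 4 and 1 (8.34 and 8.46), which were also the lowest for *Angpt1*. With the mural mean as a covariate, an alternative chosen after seeing the data, the WAT change was -1.15 for *Angpt1* (adjusted p = 0.00422) and -0.94 for *Angpt2* (adjusted p = 0.000937). With the mean of 12 endothelial markers as a covariate instead, *Angpt1* in WAT was -0.82 ± 0.35 and no longer passed (adjusted p = 0.223), and *Angpt2* was -0.71 (0.0443). That mean itself differed by diet.

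Of the receptors, *Kdr* fell in SM and *Flt1* rose in WAT. *Kdr*, the main signalling receptor for VEGFA, had a log2 signal of 7.57, 7.76, 7.75, 7.86 and 7.79 in fed SM and of 6.98, 6.93, 7.00 and 6.78 in fasted SM. The groups were clearly apart, and the array left out, at 7.00, lay among the fasted ones. The change was -0.82 ± 0.08 (1.77-fold lower, interval 1.59 to 1.97; adjusted p = 4.74e-09). In WAT the change was 0.00 ± 0.07 (adjusted p = 0.996), with an interval of -0.15 to 0.15, and in LIV it was -0.14 ± 0.08 (adjusted p = 0.253). The fall in SM exceeded the change in WAT, with a difference of WAT minus SM of 0.82 ± 0.11 (adjusted p = 2.25e-06), and that in LIV, with SM minus LIV at -0.68 ± 0.11 (4.93e-05).

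*Flt1* had a log2 signal of 9.12, 9.02, 9.36, 9.19 and 9.09 in fed WAT and of 9.82, 9.67, 9.69, 9.70 and 9.60 in fasted WAT. All fasted arrays were above all fed ones, and the change was 0.54 ± 0.09 (1.45-fold higher, interval 1.28 to 1.65, adjusted p = 3.94e-05). The call was lost with the endothelial marker mean, which itself differed by diet, as a covariate (0.37 ± 0.11, adjusted p = 0.0737). The change was 0.24 ± 0.10 in SM (adjusted p = 0.0708) and -0.12 ± 0.10 in LIV (adjusted p = 0.478), and WAT exceeded LIV by 0.66 ± 0.13 (6.03e-04). The difference between WAT and SM did not pass the threshold (0.30 ± 0.13, adjusted p = 0.137). The probe set gives 1 value for the gene and does not separate the membrane receptor from its soluble form.

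*Tek* and *Flt4* did not pass the threshold in WAT, LIV or SM. *Tek*, the angiopoietin receptor, was 0.19 ± 0.07 in WAT (adjusted p = 0.0260, under 1.3-fold), -0.11 ± 0.07 in LIV (0.320) and -0.17 ± 0.07 in SM (0.0803). *Flt4*, the VEGFC receptor of lymphatic and of liver sinusoidal endothelium, was -0.13 ± 0.17, -0.19 ± 0.18 and 0.10 ± 0.18 in WAT, LIV and SM (adjusted p = 0.679, 0.565 and 0.780). Fasted WAT 5 was at 7.55 and the other fasted WAT arrays between 6.44 and 6.85. Leaving out 1 array moved the WAT change between -0.32 and -0.03, without a call. The mean of the lymphatic endothelial markers was 7.88 in fasted WAT 5 and 5.77 to 6.53 in the other fasted WAT arrays, and its part was not tested.

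*Pecam1* (CD31), an adhesion molecule at the junctions of endothelial cells that is widely used to mark vessels, lay just under the fold limit in WAT and SM. Its log2 signal was 10.19, 10.13, 10.36, 10.32 and 10.19 in fed WAT and 10.68, 10.49, 10.46, 10.63 and 10.64 in fasted WAT. In SM it was 8.67, 8.74, 8.68, 8.88 and 8.62 in fed mice and 9.31, 9.07, 9.00 and 8.93 in fasted mice. The diets did not overlap in either tissue, though the gap in SM was narrow. The change was 0.34 ± 0.07 in WAT (1.27-fold higher, adjusted p = 3.21e-04) and 0.36 ± 0.07 in SM (1.28-fold higher, adjusted p = 4.28e-04). With all 30 arrays the SM change was 0.43 (adjusted p = 1.20e-04) and passed the fold limit. In LIV the change was 0.05 ± 0.07 (adjusted p = 0.726).

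The endothelial content of the tissues was followed with 12 other endothelial markers, and in bulk tissue fewer cells of a type and less RNA per cell cannot be told apart. In SM 0 of 12 rose and 1 fell (*Egfl7*, -0.39), with a median change of -0.08, and their changes ran from -0.39 to 0.19 on the log2 scale. The *Kdr* change of -0.82 lies outside the range of these 12, and it was -0.78 with the endothelial marker mean as a covariate (adjusted p = 7.71e-05). The range depends on the list. In SM the genes of sprouting vessels described below ran from -1.80 (*Aplnr*) to 0.85 (*Jag1*). The further family genes and co-receptors ran from -0.60 (*Nrp1*) to 1.51 (*Vegfd*). In WAT 3 of 12 rose (*Sox17* 1.01, *Eng* 0.74, *Sox18* 0.51) and 0 fell, with a median of 0.14. The 12 changes ran from -0.29 (*Erg*) to 1.01 (*Sox17*), so these markers did not move together in WAT. The mean log2 signal of the 12 lay between 9.03 and 9.16 in fed and between 9.23 and 9.47 in fasted WAT, with no overlap. That mean includes the 3 genes that rose and is not a measure of endothelial content alone. All 5 calls of members held in a fit of WAT alone. With this mean as a covariate in that fit *Vegfa*, *Flt1*, *Vegfb* and *Angpt1* no longer passed, while *Angpt2* did. Since the mean did not overlap between the diets, that fit cannot separate diet from the mean. The SE of each lost change was also larger than in the fit reported. In LIV 0 of 12 passed, with a median of -0.06.

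**Figure D3:**
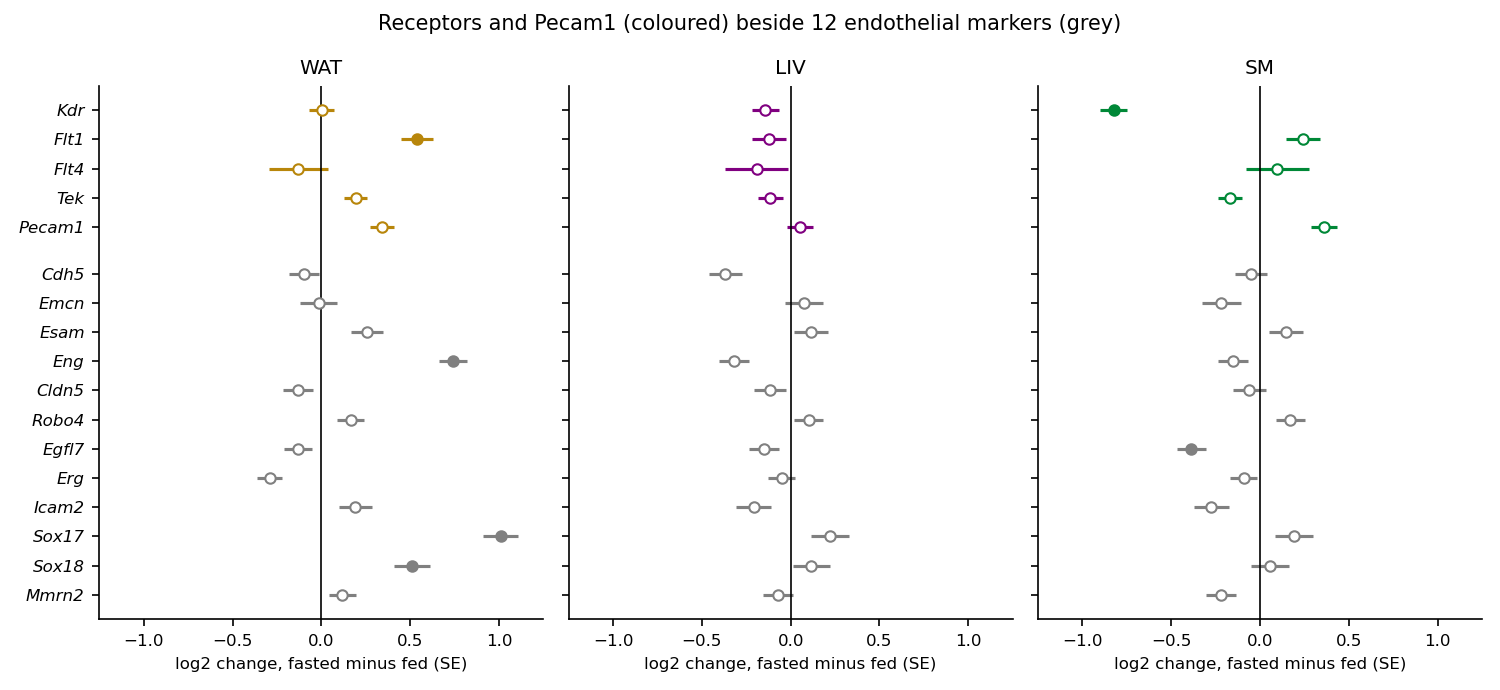
Fasting change (log2, fasted minus fed, with its SE) of the 4 receptors and *Pecam1* (coloured) and of 12 endothelial markers (grey) in WAT, LIV and SM; filled points passed the threshold. In SM *Kdr*, at -0.82, lies below the 12 endothelial markers shown, which run from -0.39 to 0.19.

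Markers of other cell types were followed as well. In WAT the mean of 9 adipocyte markers lay between 11.67 and 11.85 in fed and between 11.17 and 11.57 in fasted arrays. Of the 9, *Lep* (-1.93) and *Slc2a4* were lower and 0 higher, with a median change of 0.06. The part of that mean in the WAT changes was not tested. In SM 7 slow fibre markers spread widely, from 5.39 to 10.21 in fed and from 8.34 to 9.86 in fasted arrays by their mean, with a median change of 0.85 and 0 of 7 past the threshold. The mean of 9 adipocyte markers in SM lay between 7.90 and 9.81 in fed and between 7.95 and 8.79 in fasted arrays, and *Plin1*, *Lep* and *Retn* fell. With the slow fibre mean as a covariate the SM change was -0.89 for *Vegfa* (adjusted p = 3.67e-05), -0.80 for *Kdr* (6.82e-05) and -0.77 for *Angpt1* (0.00134), and with the adipocyte mean it was -0.90, -0.86 and -0.76 (5.30e-05, 6.75e-05 and 0.00220). The other marker lists gave these counts of genes up and down in WAT, LIV and SM. Liver sinusoidal endothelial markers gave 2 and 1, 1 and 0, and 1 and 0 of 6. Lymphatic endothelial markers gave 0 and 0, 1 and 0, and 0 and 0 of 4. The gene up in LIV was *Lyve1* in both lists. Macrophage markers gave 2 and 0, 0 and 3, and 2 and 0 of 8. Hepatocyte and lymphocyte markers gave 0 in each tissue, and muscle fibre markers gave 1 up of 9 in WAT.

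Differences of the fasting change between tissues passed the threshold for 4 of 10 members between WAT and LIV (*Vegfa*, *Flt1*, *Angpt1* and *Angpt2*), where 13.5% of all probe sets did so in either direction. They passed for 3 members between WAT and SM (*Vegfa*, *Kdr* and *Angpt2*), against 12.8%, and for 2 between SM and LIV (*Vegfa* and *Kdr*), against 12.8%. These comparisons share groups of arrays. For *Angpt1* the fall in WAT exceeded the change in LIV by -1.40 ± 0.29 (adjusted p = 8.06e-04), and its difference from SM, -0.74 ± 0.29, did not pass (adjusted p = 0.0812). *Vegfa* was the only member past the threshold in all 3 of these comparisons.

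In fed mice the same genes differed widely in level between tissues, and WAT was above both other tissues for *Angpt1*, *Angpt2*, *Kdr*, *Flt1*, *Tek* and *Pecam1*. *Pecam1* had a mean log2 signal of 10.24 ± 0.10 (SD, n = 5) in WAT, 8.72 ± 0.10 (n = 5) in SM and 7.53 ± 0.05 (n = 4) in LIV. *Angpt1* followed the same order with 7.64 ± 0.28, 6.60 ± 0.17 and 4.36 ± 0.30, as did *Angpt2*, *Flt1* and *Tek*, and each step of that order passed the threshold in these 5 genes. This order was not particular to the members. In fed WAT, SM and LIV the mean of the 12 endothelial markers was 9.10, 7.55 and 7.06, and that of the 7 mural markers 9.07, 7.95 and 5.86. The part of cell content in these levels was not tested. Fed WAT exceeded fed LIV by 3.27 ± 0.21 for *Angpt1* (9.66-fold, adjusted p = 7.72e-14) and by 2.70 ± 0.07 for *Pecam1* (6.52-fold, 1.42e-22). *Vegfa* and *Vegfb* were lowest in LIV, by 0.60 ± 0.09 and 2.00 ± 0.07 relative to SM (adjusted p = 2.16e-06 and 9.41e-20), and did not pass between WAT and SM (-0.12 ± 0.09, adjusted p = 0.246, and 0.17 ± 0.07, 0.0353).

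*Flt4* had another order, with LIV at 8.03 ± 0.06, WAT at 6.94 ± 0.30 and SM at 5.77 ± 0.28, each step past the threshold. The mean of 6 liver sinusoidal endothelial markers had this order too, at 8.70, 6.24 and 5.31 in fed LIV, WAT and SM. *Kdr* was highest in WAT (8.85 ± 0.12), then in LIV (8.13 ± 0.04) and lowest in SM (7.75 ± 0.11), and the step from LIV to SM of -0.38 ± 0.08 (adjusted p = 9.35e-05) lay at the fold limit and was lost without fed LIV 2 (-0.37), fed LIV 3 (-0.37) or fed SM 1 (-0.34). *Vegfc* was higher in WAT than in SM (0.55 ± 0.12, adjusted p = 3.48e-04) while neither tissue passed the threshold against LIV. In all, 8 of 10 members were higher and 1 lower in fed WAT than in fed LIV, against 21.4% and 18% of all probe sets. Against fed SM 8 were higher and 0 lower in fed WAT (22.9% and 18.8%), and 7 were higher and 2 lower in fed SM than in fed LIV (22.7% and 20.1%).

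Other genes of the pathway were taken from lists and are described by counts. Of 7 further family genes and co-receptors 0 rose and 3 fell in WAT, where 7.99% of the 18781 genes rose and 7.75% fell. These were *Angpt4* (-0.51, a further angiopoietin), *Pgf* (-0.50, placental growth factor, a ligand of VEGFR1) and *Vegfd* (-0.49, a ligand related to VEGFC). In SM *Vegfd* rose by 1.51 ± 0.15, from 6.42 ± 0.23 (SD, n = 5) to 7.92 ± 0.19 (n = 4) (adjusted p = 1.67e-08), and *Nrp1*, the VEGF co-receptor neuropilin 1, fell (-0.60 ± 0.09, 1.06e-05). The changes of *Vegfd* in WAT and SM differed by -2.00 ± 0.21 (WAT minus SM, adjusted p = 7.73e-08). In LIV only *Nrp1* passed, at -0.45 ± 0.09 (8.36e-04). The shares of all genes that rose and fell were 7.80% and 5.78% in SM and 3.53% and 4.01% in LIV.

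Genes of VEGF and Notch signalling in sprouting vessels split in WAT, where 5 of 15 rose (*Plcg1*, *Notch4*, *Pdgfb*, *S1pr1* and *Rasip1*) and 5 fell (*Aplnr*, *Dll4*, *Apln*, *Esm1* and *Unc5b*), with a median of 0.10. The log2 change was -2.08 ± 0.12 for *Aplnr*, the apelin receptor (adjusted p = 5.77e-13), -1.38 ± 0.10 for *Dll4*, a Notch ligand (6.88e-11), and -1.22 ± 0.12 for *Apln*, the ligand apelin (1.42e-08). In SM *Aplnr* (-1.80 ± 0.13, 2.71e-11), *Apln* (-0.67 ± 0.13, 2.74e-04) and *Unc5b* fell as well, while *Jag1*, another Notch ligand, rose by 0.85 ± 0.09 (3.37e-08). The counts in SM were 1 up and 3 down of 15, with a median of -0.07. In LIV *S1pr1*, a lipid receptor that steadies endothelial junctions, (-0.69 ± 0.11, 1.06e-04) and *Jag1* (-0.39 ± 0.09, 0.00282) fell, with 0 up, 2 down and a median of -0.03.

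Among angiogenesis inhibitors, *Thbs2* and *Thbs1*, which encode the secreted thrombospondins, rose in WAT by 3.03 ± 0.12 and 2.14 ± 0.18 (adjusted p = 2.87e-16 and 4.77e-10) and in SM by 0.64 ± 0.13 and 0.84 ± 0.19 (3.09e-04 and 0.00128). *Col18a1*, the precursor of endostatin, fell in WAT (-0.48 ± 0.08, 1.85e-05) and in SM (-0.51 ± 0.08, 2.21e-05), and *Adamts1* rose in SM. Counts were 2 up and 1 down of 6 in WAT and 3 up and 1 down of 6 in SM, with medians of 0.16 and 0.16. In LIV 0 of 6 passed, with *Adamts1* largest at 0.35 ± 0.14 (0.103).

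Hypoxia-inducible factors (HIF) and PGC-1α are known inducers of *Vegfa*. Of 9 HIF factors and hydroxylases 4 rose and 0 fell in WAT, with a median of 0.41, where 7.99% of all genes rose and 7.75% fell. The 4 were *Hif3a* (1.03 ± 0.10, adjusted p = 7.96e-09), *Arnt*, the shared HIF partner (0.55 ± 0.06, 1.87e-08), *Vhl*, which marks HIF for degradation (0.46 ± 0.07, 6.22e-06), and *Epas1*. *Hif1a* had a mean log2 signal of 9.42 in fed and 9.19 in fasted WAT and did not pass. The lowest change in WAT was that of the hydroxylase gene *Egln1* (-0.37), which did not pass either. In SM *Hif3a* (1.09 ± 0.11, 9.94e-09) and *Arnt* (0.61 ± 0.06, 8.38e-09) rose, and 0 of 9 fell (median 0.03). In LIV the hydroxylase gene *Egln3* was lower (-0.72 ± 0.24, 0.0486), and 0 rose (median -0.09). The part of these factors in the *Vegfa* changes was not tested.

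Of 13 HIF target genes other than *Vegfa*, 5 rose and 2 fell in WAT (median -0.01). *Adm* (0.64 ± 0.14, adjusted p = 7.39e-04), *Kdm3a* (0.59 ± 0.06, 4.43e-08), *Slc2a1*, *Bnip3* and *Mxi1* rose, and the glycolytic genes *Ldha* (-0.65 ± 0.06, 1.70e-09) and *Pgk1* fell. In SM 4 rose and 0 fell (median 0.15), led by *Bnip3* (0.62 ± 0.07, 4.97e-08), *Kdm3a* (0.55 ± 0.07, 4.50e-07) and *Slc2a1* (0.44 ± 0.12, 0.00922), with *Adm*. In LIV *Bnip3* (0.70 ± 0.07, 1.41e-08) and *Adm* (0.60 ± 0.15, 0.00501) rose and *Ndrg1* fell (-0.63 ± 0.17, 0.0132), with a median of 0.03. *Bnip3* and *Mxi1* have 2 probe sets and *Pgk1* has 3, and only the one of highest mean was used for each.

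*Ppargc1a*, which encodes PGC-1α, fell in SM from 9.65 ± 0.05 (SD, n = 5) to 8.99 ± 0.07 (n = 4), a log2 change of -0.66 ± 0.19 (adjusted p = 0.00976), and rose in LIV from 8.30 ± 0.19 (n = 4) to 9.19 ± 0.35 (n = 5), by 0.89 ± 0.19 (0.00147). In WAT it was 7.19 ± 0.22 (n = 5) in fed and 7.58 ± 0.54 (n = 5) in fasted mice, and the change of 0.39 ± 0.18 did not pass (limma, adjusted p = 0.108). The paper reports *Ppargc1a* from its arrays as upregulated in WAT and LIV and downregulated in SM. The gene has 2 probe sets, and only the one of highest mean is given here. *Ppargc1b*, its relative, fell in SM (-0.87 ± 0.16, 1.58e-04) and rose in WAT by 0.62 ± 0.15 (0.00231). The estrogen-related receptor genes *Esrrg* (0.53 ± 0.16, 0.0299) and *Esrra* (0.45 ± 0.08, 1.78e-04) rose in LIV. Of the 5 genes of this group 1 rose in WAT, 3 rose in LIV and 2 fell in SM, with medians of 0.06, 0.45 and -0.25. The part of these genes in the *Vegfa* changes was not tested.

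**Figure D4:**
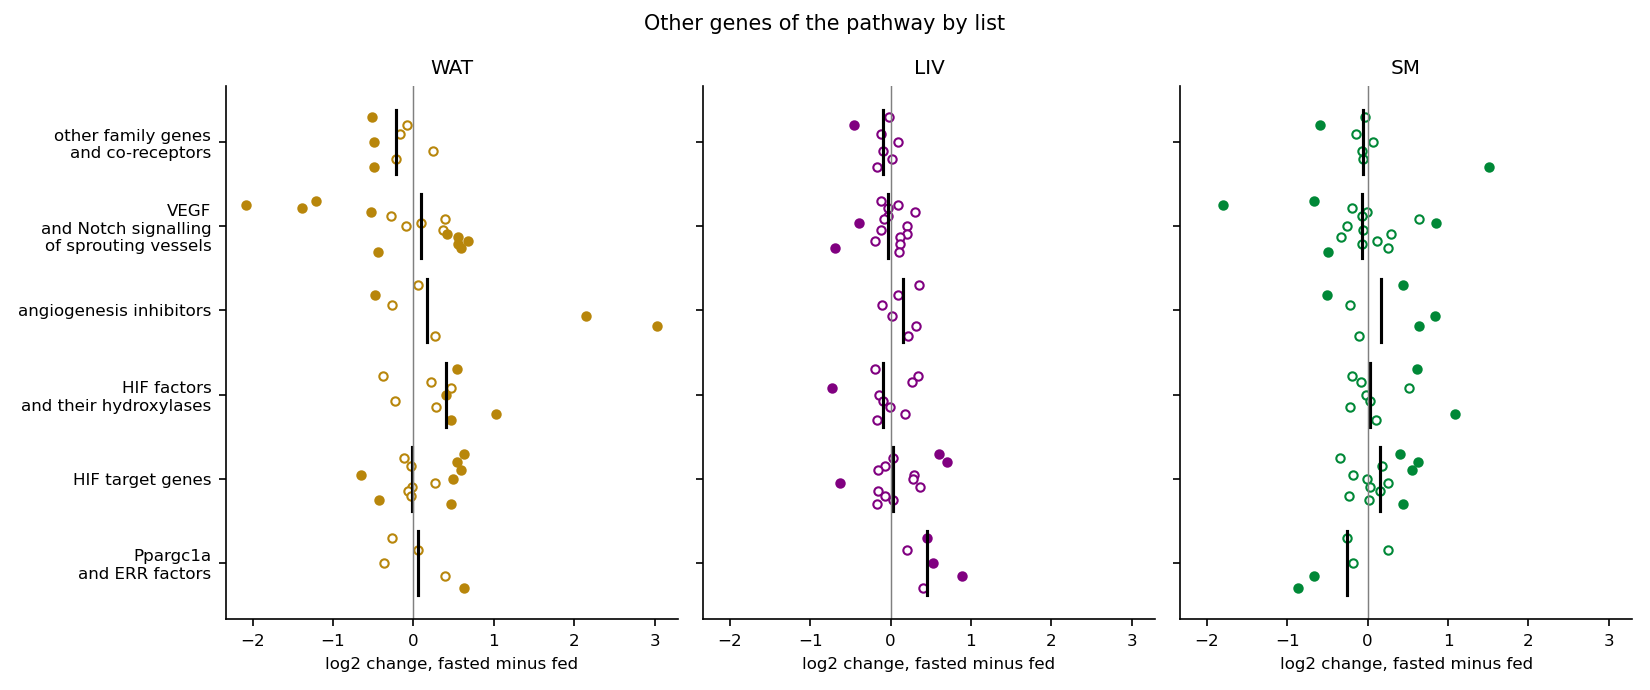
Fasting change (log2, fasted minus fed) of the genes of 6 further lists in WAT, LIV and SM; each circle is a gene, filled where it passed the threshold, and the black bar is the list's median. *Thbs2* and *Thbs1* in WAT, at 3.03 and 2.14, lie farthest right, and *Aplnr* lies farthest left in WAT (-2.08) and in SM (-1.80).

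The genes whose pattern was most like that of *Vegfa* over the 28 arrays, after the mean of each tissue was taken off, were *Ets1* (Pearson r = 0.90), *Znrf1* (0.89), *Ank1* (0.89), *Dyrk2* (0.88) and *Cxcl12* (0.88). These arrays share the diets and the normalization, and the r is a description of likeness. Each of the 5 was higher in fasted than in fed WAT and lower in fasted than in fed SM by its group means. That follows largely from their choice by likeness to *Vegfa*. *Cxcl12*, which encodes a chemokine of stromal and endothelial cells, differed by 0.74 in WAT, 0.01 in LIV and -0.68 in SM, and *Ets1*, a transcription factor expressed in endothelial and lymphoid cells, by 0.28, 0.02 and -0.62.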

How the data were processed

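Deposited log2 values were analysed without further normalization. The authors had made them from the scanned arrays in Partek by RMA, whose quantile step hides any shift in total mRNA. The table holds 28815 probe sets and 30 arrays. Probe sets were named by the platform annotation, of which 21153 have 1 symbol, and a gene took its probe set of highest mean. A model with 1 mean per group was fitted to 28 arrays with limma 3.58.1 in R 4.3.3 (residual degrees of freedom 22, prior 4.24), with contrasts fasted minus fed, their differences between tissues, and fed tissue levels. Changes were called at an adjusted p under 0.05 and at least 1.3-fold. The fit estimated the spread of a gene once over all groups and tissues. P-values and SE therefore measure the spread between these mice pooled over tissues, not the spread within 1 tissue. The procedure was tested on simulated data. The paper's text names fasted SM 1 in place of fasted SM 5 as the array left out, and that set was an alternative.

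The members, lists and tests were chosen with earlier results of these data known. From each list up to 3 called genes per tissue with the largest change were named with values, or the largest where none was called, and further called genes were named after their values were seen. Promoter windows came from RefSeq. Arrays of the same number were not paired: the deviations of 26 pairs across tissues of a diet correlated from -0.12 to 0.18, with 6 over 0.1, and those of 13 pairs across diets of a tissue from -0.25 to 0.16, with 3 over 0.1. A random block for the mouse had a consensus correlation of 0.027. Figures used Python 3.11.15 with matplotlib 3.10.9. Of the lists, *Vash1*, *Ccl21a*, *Cfd* and *Tf* were not analysed here.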

Additional observations from a re-analysis of the deposited data

Results flagged for a closer look

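The fasting change differed between tissues past the threshold in 9 of 30 tests of a member between a pair of tissues (limma, adjusted over all probe sets). *Vegfa* differed by 0.71 between WAT and LIV, by 1.49 between WAT and SM and by -0.79 between SM and LIV. *Angpt2* differed by -1.01 between WAT and LIV and by -1.09 between WAT and SM, and *Angpt1* by -1.40 between WAT and LIV. *Kdr* differed by 0.82 between WAT and SM and by -0.68 between SM and LIV, and *Flt1* by 0.66 between WAT and LIV. All are differences of log2 changes, the first tissue minus the second.

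Of 60 groups of 4 or 5 arrays looked at, 1 held an array far from the others, and chance alone gives about 1 in 20. It was *Kdr* in fed WAT 3, at 9.05 on the log2 scale with the other 4 arrays between 8.76 and 8.83, a gap of 0.755 of the range of the group.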

How the results depend on the processing

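Of 3740 values of the members under 46 alternatives, 28 of which left out 1 array, 3684 kept their side of the threshold. Of the calls, 17 were lost, 39 were gained and 0 turned direction. Values that were not called did change sign in some alternatives, as for *Flt4* in WAT (-0.29 to 0.21). The number of members up in SM, 0 in the fit reported, became 1 (*Pecam1*) with all 30 arrays, with array weights, with fasted SM 1 left out in place of fasted SM 5, without fed LIV 4 only, with no minimum fold and with the endothelial or slow fibre mean as a covariate, and was 0 to 1 on leaving out 1 array each (1 without fed SM 4, fasted SM 3 or fasted SM 4). Without a minimum fold 4 members rose in WAT, and at 1.5-fold 1 did. At 1.5-fold 0 fell in LIV, as with the mural mean as a covariate, an alternative chosen after seeing the data like the set without fed LIV 4 only. With the endothelial mean as a covariate 0 rose and 1 fell in WAT, where that mean did not overlap between the diets. Members lower in fed SM than in fed LIV numbered 1 with all 30 arrays, with array weights and at 1.5-fold, and also without fed LIV 2 or fed LIV 3. *Vegfc* was called lower as well without fed SM 1 (-0.39), where *Kdr* was lost, and without fed SM 4 (-0.42), where *Kdr* was kept. It was also called with no minimum fold (-0.33). Differences between WAT and SM passed for 5 members with fasted SM 1 left out and for 5 with the replicate block, which changed 2 calls (*Tek*, 0.40, and *Angpt1*, -0.74) and no other count by over 1.5 times. The labels do not say that equal numbers share a mouse, and the cause of these shifts was not tested. With 4 or 5 arrays a group, changes close to 1.3-fold sit at the limit of what the fit resolves.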
